A study of Mus musculus with 12 samples.

Results

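The interleukin-1 family and its receptors were followed in the cecum of mice after surface cauterization, an injury after which the cecum adheres to neighbouring tissue. The 9 genes Il1a, Il1b, Il1rn, Il1r1, Il1r2, Il1rap, Il33, Il1rl1 and Il18 were taken by name from the annotation of the array, where they had 19 of the 56605 probes and made up 9 of the 37074 named genes or transcripts. Each of 4 groups held 3 arrays of whole cecum RNA: a sham control, and cecum taken 3, 12 or 72 h after the burn. The mice were C57BL/6. The cecum was exposed through a midline incision and burned briefly with bipolar forceps in coagulation mode, and the methods place the sham tissue at 0 h. The labels name no time for the sham arrays and no age, and no sham group matched to a later time was analysed here, so the incision, the elapsed time and the burn cannot be told apart. All samples are labelled male. Against that label, Xist was well above background on 12 of 12 arrays and the Y-linked genes Ddx3y and Eif2s3y on 0 of 12. Uty was above background on 1 array, and Kdm5d had a probe above background on 12.

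IL-1α and IL-1β are cytokines that act on the same receptor, IL-1R1, which signals together with the accessory protein IL-1RAP. The family carries its own brakes: the antagonist encoded by Il1rn occupies IL-1R1 without signalling, and the decoy receptor encoded by Il1r2 binds IL-1 but cannot signal. IL-33 is a nuclear alarmin of barrier and stromal cells that signals through the receptor encoded by Il1rl1 (ST2) with the same accessory protein, whereas IL-18 is stored as a precursor in gut epithelium.

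The genes lie in few places of the genome. In the mm9 coordinates of the array, the probes of Il1r2, Il1r1 and Il1rl1 were on chromosome 1, with the probe of Il1r1 at chr1:40372667-40372726, and those of Il1rn, Il1a and Il1b were on chromosome 2, with the main probe of Il1b at chr2:129190347-129190406 on the minus strand. Il18 had its probe on chromosome 9, Il1rap had probes on chromosome 16 and Il33 on chromosome 19. No exon or untranslated region was assigned, because no annotation of that build was used here.

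RefSeq promoters of build GRCm38.p6, each 250 bases before to 50 bases after a start site, were listed for 9 of the 9 genes (14 promoters). They were searched on both strands for 3 motifs of factors that act in inflammation: NF-kB by its usual consensus, AP-1 as TGANTCA and C/EBP as TTNNGNAA. Matches may overlap each other. The promoters of 4 genes that rose most follow with every match in capitals: those of the cytokines Il1a and Il1b, one of the 3 of the antagonist Il1rn, and that of the decoy receptor Il1r2.
Il1a, chr2:129309923-129310222, minus strand: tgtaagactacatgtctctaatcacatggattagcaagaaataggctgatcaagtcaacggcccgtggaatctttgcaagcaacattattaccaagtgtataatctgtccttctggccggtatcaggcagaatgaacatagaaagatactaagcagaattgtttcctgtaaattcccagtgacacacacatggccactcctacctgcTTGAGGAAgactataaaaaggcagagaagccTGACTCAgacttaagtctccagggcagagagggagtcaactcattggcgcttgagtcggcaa
Il1b, chr2:129371090-129371389, minus strand: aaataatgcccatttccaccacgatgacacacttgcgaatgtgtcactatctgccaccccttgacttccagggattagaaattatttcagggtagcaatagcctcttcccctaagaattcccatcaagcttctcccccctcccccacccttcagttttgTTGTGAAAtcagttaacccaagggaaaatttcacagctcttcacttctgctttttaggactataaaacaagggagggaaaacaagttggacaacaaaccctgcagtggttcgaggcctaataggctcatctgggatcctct
Il1rn, chr2:24336610-24336909, plus strand: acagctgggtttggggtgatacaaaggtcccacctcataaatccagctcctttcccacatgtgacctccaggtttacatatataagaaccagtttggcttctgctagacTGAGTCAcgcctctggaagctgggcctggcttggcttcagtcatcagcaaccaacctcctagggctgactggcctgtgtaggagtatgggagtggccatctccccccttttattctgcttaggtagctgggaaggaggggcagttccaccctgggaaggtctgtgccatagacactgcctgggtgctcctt
Il1r2, chr1:40085843-40086142, plus strand: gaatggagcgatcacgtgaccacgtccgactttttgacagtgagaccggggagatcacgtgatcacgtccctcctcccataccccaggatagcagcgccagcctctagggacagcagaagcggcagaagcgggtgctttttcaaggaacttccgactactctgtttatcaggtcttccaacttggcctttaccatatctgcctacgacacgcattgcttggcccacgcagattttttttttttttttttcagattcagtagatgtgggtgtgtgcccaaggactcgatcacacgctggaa
The capitals mark a C/EBP match at -43 and an AP-1 match at -12 from the start site in Il1a, a C/EBP match at -91 in Il1b and an AP-1 match at -141 in Il1rn. The window of Il1r2 held no match. AP-1 matches were found in 2 of the 9 genes (Il1a and Il1rn), against 8.97% of all 27025 genes and 7.81% of their 32851 promoters. C/EBP matches were found in 6 genes, against 44.1% of genes and 40.7% of promoters, and an NF-kB match in 1 gene, Il1r1, against 9.55% of genes and 8.46% of promoters. These matches are letters in a window, not binding sites.

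Some probes tell transcript forms apart. NM_010743 is the short Il1rl1 transcript for soluble ST2, a decoy for IL-33, and NM_001025602 the long one for the membrane receptor. NM_008364 is the long Il1rap transcript for the membrane accessory protein and NM_134103 a short one. The first 30 of the 60 bases of the probes show that each pair reads unrelated stretches, at chr1:40504769-40504828 and chr1:40522187-40522246 for Il1rl1, and at chr16:26701498-26701557 and chr16:26717577-26717636 for Il1rap (mm9).
Il1rl1, soluble form: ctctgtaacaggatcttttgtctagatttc
Il1rl1, membrane form: gccattgactccttgtgtgttttcttcatg
Il1rap, short form: gatgttgtcaacgcctttgtttctaaatgt
Il1rap, long form: tgtatacagccacatgggatttaattctct

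Levels are log2 processed signals from which the log2 of the array's 75th percentile was subtracted, so 0 is the 75th percentile of that array. Levels of different probes are not comparable. The percentile lay between 263 and 375 intensity units, 60.2% to 65.2% of probes were well above background, and 0 spots were saturated. A gene was called changed where its brightest probe differed more than 2-fold at an adjusted p below 0.05 (limma, adjusted over all probes). The median log2 fold change of all genes was 0.06, -0.04 and -0.15 at 3, 12 and 72 h against sham, -0.13 from 3 to 12 h and -0.12 from 12 to 72 h. Sham replicate 3 was the highest sham array for 6 of the 9 genes and lay over 1 log2 unit above both others for Il1a, Il1b, Il1rn and Il1rl1. The 3 arrays at 72 h and 12 h replicate 3 were on a second slide, apart from all other arrays, so only 1 array links 72 h to the slide of the sham arrays.

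Against sham, 7 of the 9 genes were called higher at 3 h (Il1a, Il1b, Il1rn, Il1r2, Il1rap, Il33 and Il1rl1), where 3.14% of all genes were called higher and 4.33% lower. At 12 h, 6 genes were called higher, the 3 h set without Il1rl1, where 3.95% of all genes were called higher and 5.33% lower. In these counts Il1rl1 stands on its brightest probe, that of the soluble form. The probe of its membrane form was called higher at 3, 12 and 72 h. At 72 h, 7 were called higher (Il1a, Il1b, Il1rn, Il1r1, Il1r2, Il1rap and Il33), where 4.5% of all genes were called higher and 4.4% lower. In these comparisons 0 of the 9 genes were called lower, and at an unadjusted p under 0.05 Il18 was lower at 3 h and 72 h. Over the 4 groups, 9 of the 9 genes passed the F-test at an adjusted p below 0.05, as did 39.5% of all genes. Without sham replicate 3 the counts against sham were 6, 7 and 7.

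**Figure D1:**
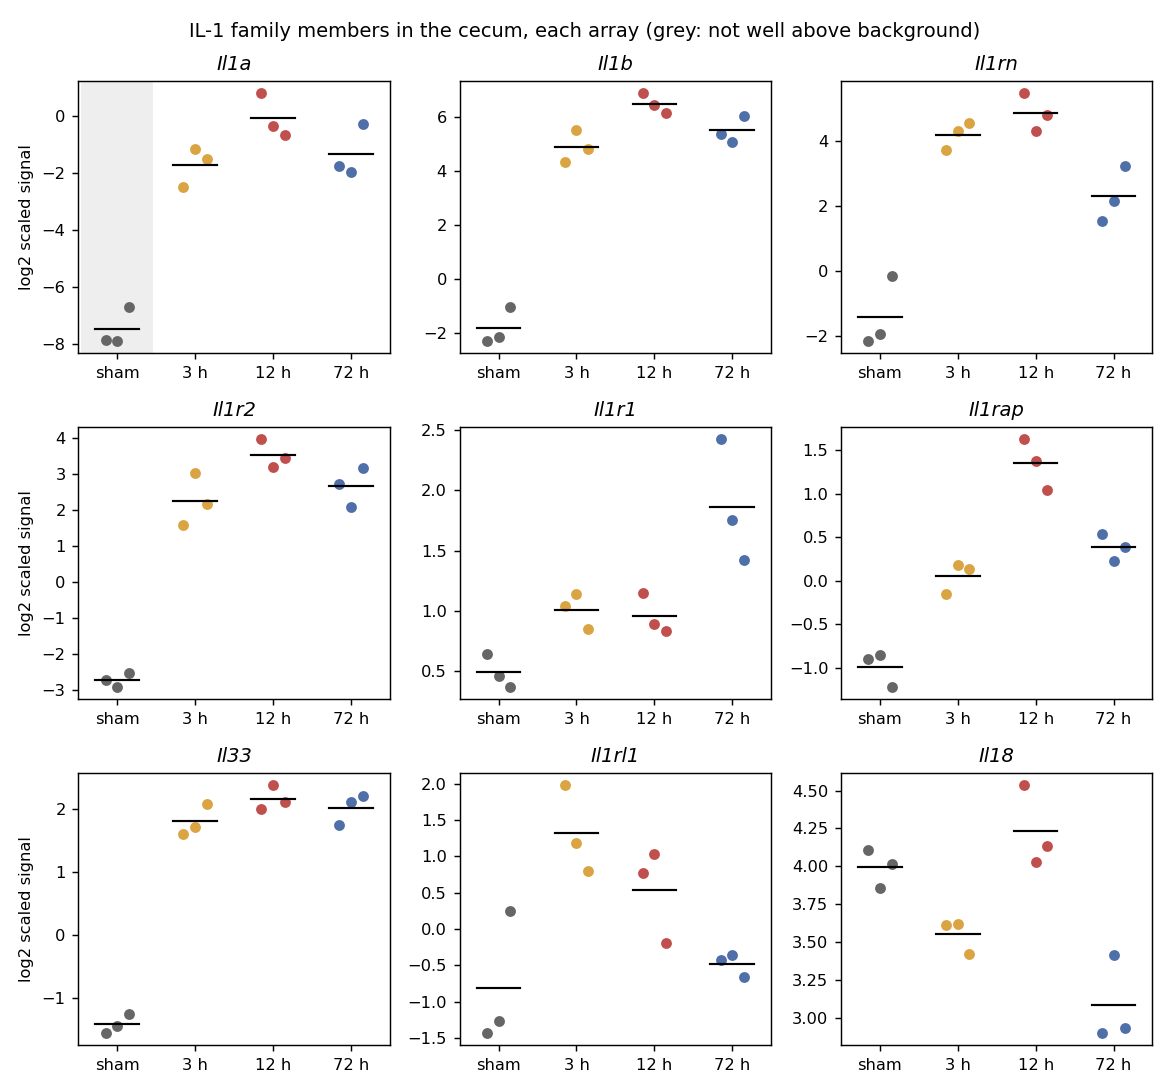
Log2 scaled signal (vertical axis) of the brightest probe of each of the 9 genes on the 3 arrays of each group (points), with the group mean (line); grey marks a group in which the probe was not well above background on any array. Il1a, Il1b, Il1rn, Il1r2, Il1rap and Il33 lay above every sham array at all 3 times. So did Il1r1, which was called at 72 h only. The brightest probe of Il1rl1 is that of the soluble form.

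Il1b, the main secreted IL-1 of myeloid cells, had the largest fold change of the 9 genes with a measured sham level. Its levels on the sham arrays were -2.30, -2.17 and -1.03. The 3 h arrays gave 4.32, 5.51 and 4.81, the 12 h arrays 6.88, 6.43 and 6.14, and the 72 h arrays 5.39, 5.09 and 6.05. The sham arrays lay far below all others, the 12 h arrays were the highest, and the 3 h and 72 h arrays overlapped. The log2 fold change against sham was 6.71 (SE 0.41) at 3 h, 8.32 at 12 h and 7.35 at 72 h, that is 105-, 320- and 163-fold, with adjusted p of 1.39e-05, 3.65e-06 and 8.89e-06. Its other probes, of which 1 is for another transcript (ENSMUST00000155994), had log2 fold changes from 6.12 to 8.69 over the 3 times.

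Il1a, the IL-1 that is active as a precursor and is released by dying cells, was not well above background on any sham array. Its levels there were -7.87, -7.89 and -6.71. The 3 h arrays gave -2.51, -1.15 and -1.50, the 12 h arrays 0.79, -0.36 and -0.66, and the 72 h arrays -1.76, -1.98 and -0.29, each above background. The injured groups lay well apart from sham, and the 72 h arrays overlapped with those at 3 h and at 12 h. As its sham level, the dimmest probe that each sham array still measured above background was taken. By this bound Il1a was at least 14.1-fold higher at 3 h, 44.1-fold at 12 h and 18.4-fold at 72 h. The limma fit used the sham signals as read and gave adjusted p of 0.000186, 2.9e-05 and 0.00011, which do not test the bounds. Normexp background correction, which adds an offset of 50 to every signal, gave log2 fold changes of 1.42, 2.66 and 1.64, all called.

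Il1rn, the receptor antagonist, rose as early as the cytokines and fell back by 72 h. Its levels were -2.16, -1.94 and -0.15 on the sham arrays. Those of the 3 h arrays were 3.73, 4.29 and 4.55, of the 12 h arrays 5.46, 4.29 and 4.79, and of the 72 h arrays 1.54, 2.14 and 3.22. The 3 h and 12 h arrays overlapped, and each 72 h array lay below all of them but above sham. The log2 fold change against sham was 5.61 (SE 0.57) at 3 h, 6.26 at 12 h and 3.72 at 72 h, that is 48.7-, 76.7- and 13.1-fold, with adjusted p of 0.000229, 8.31e-05 and 0.00187. With the slide as a block the 72 h value was 3.80, with an adjusted p of 0.102. The other probe moved the same way and was well above background on 1 of the 3 sham arrays.

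Il1r2, the decoy receptor, followed Il1b closely. Its levels were -2.73, -2.91 and -2.52 on the sham arrays. The 3 h arrays gave 1.57, 3.03 and 2.16, the 12 h arrays 3.97, 3.21 and 3.44, and the 72 h arrays 2.73, 2.08 and 3.15. The injured groups were far above sham, and the 3 h and 72 h arrays overlapped. Its log2 fold change was 4.97 (SE 0.37) at 3 h, 6.26 at 12 h and 5.38 at 72 h, that is 31.4-, 76.6- and 41.6-fold (adjusted p 4.38e-05, 9.36e-06 and 2.46e-05). The other probe, not above background on any sham array, was at least 37.5-, 93.6- and 40.5-fold higher.

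Il1r1, the signalling receptor, was called at 72 h and at no earlier time. Sham arrays gave 0.65, 0.46 and 0.37, 3 h arrays 1.04, 1.14 and 0.85, and 12 h arrays 1.15, 0.89 and 0.83. Those of 72 h gave 2.43, 1.75 and 1.42. The 3 h and 12 h arrays overlapped with each other and lay above the sham arrays, and all 72 h arrays lay above them. The log2 fold change was 0.52 (SE 0.22, adjusted p 0.141) at 3 h, 0.46 (adjusted p 0.182) at 12 h and 1.37 (adjusted p 0.00244) at 72 h, a 2.59-fold rise. With the slide as a block the 72 h value was 1.56, with an adjusted p of 0.084.

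Il1rap, the accessory protein that the IL-1 and IL-33 receptors share, rose in 2 steps. For its long form, sham arrays gave -0.90, -0.86 and -1.22, 3 h arrays -0.15, 0.18 and 0.13, 12 h arrays 1.62, 1.38 and 1.05, and 72 h arrays 0.54, 0.23 and 0.38. The 4 groups did not overlap, with sham lowest, then 3 h, 72 h and 12 h. The log2 fold change was 1.04 (SE 0.17) at 3 h, 2.34 at 12 h and 1.37 at 72 h, that is 2.06-, 5.06- and 2.59-fold (adjusted p 0.00283, 2.53e-05 and 0.000654). At 3 h it only just passed the 2-fold limit, and missed it without sham replicate 3 (0.93) or without 3 h replicate 2 (0.98). The probe of the short form, above background on every array, changed by 1.09, 2.19 and 1.53 and was called at each time. With the slide as a block its 72 h value was 1.54, with an adjusted p of 0.135. Its 3 h call was lost without sham replicate 1 (0.97, adjusted p 0.0675) or 3 h replicate 2 (0.90, adjusted p 0.0589), and with normexp it changed by 0.43, 0.90 and 0.49, under 2-fold at each time. The 2 further probes were above background on some arrays at most. Averaged over all 4 probes, the gene changed by 0.23 at 3 h (adjusted p 0.609) and 0.80 at 72 h (adjusted p 0.0817), neither of which was called, and by 1.55 at 12 h, which was.

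**Figure D2:**
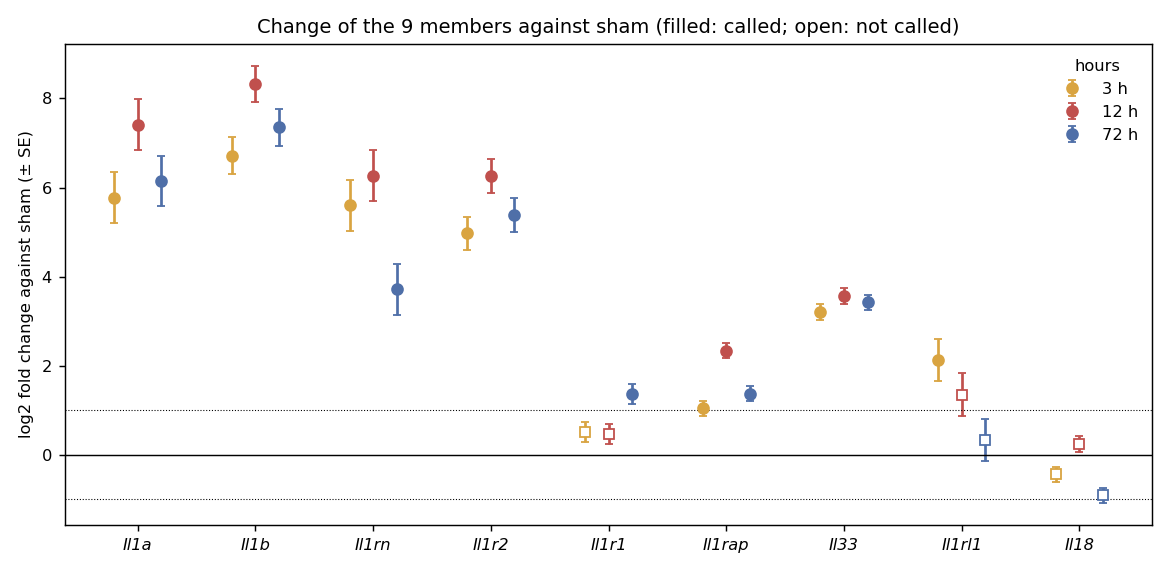
Log2 fold change against sham (vertical axis, bars are SE) of the brightest probe of each gene at 3, 12 and 72 h; filled points were called and open squares were not, and dotted lines mark a 2-fold change. Il1b reached 8.32 at 12 h, Il33 stayed between 3.21 and 3.57, and Il18 lay between -0.91 and 0.24. The sham level of Il1a was not above background, so its fold changes are not measured sizes. Il1rl1 is shown by the probe of its soluble form.

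Il33, the alarmin, rose early and stayed high. Its levels were -1.54, -1.44 and -1.25 on the sham arrays. The 3 h arrays gave 1.60, 1.72 and 2.08, the 12 h arrays 1.99, 2.38 and 2.10, and the 72 h arrays 1.74, 2.10 and 2.20. All 9 injured arrays lay well above sham, and the 3 injured groups overlapped. Against sham, Il33 had a log2 fold change of 3.21 (SE 0.17) at 3 h, 3.57 at 12 h and 3.42 at 72 h, that is 9.24-, 11.8- and 10.7-fold (adjusted p 8.88e-06, 3.65e-06 and 6.73e-06). The step from 3 to 12 h was 0.36 (adjusted p 0.241) and that from 12 to 72 h was -0.14 (adjusted p 0.602). The other Il33 probe changed by 2.85, 3.13 and 2.90.

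Il1rl1, the receptor of IL-33, had its highest mean at 3 h on both transcript forms. For the soluble form, sham arrays gave -1.42, -1.27 and 0.25, 3 h arrays 1.98, 1.18 and 0.80, 12 h arrays 0.77, 1.03 and -0.18, and 72 h arrays -0.43, -0.35 and -0.66. The 3 h arrays lay above sham, whereas the 12 h and 72 h arrays overlapped with sham. Its log2 fold change was 2.14 (SE 0.47, adjusted p 0.0118) at 3 h, 1.35 (adjusted p 0.0697) at 12 h and 0.34 (adjusted p 0.643) at 72 h. The 3 h call was lost without sham replicate 1 (1.83, adjusted p 0.0508), and the 12 h change was called in 7 of 26 alternatives, among them without sham replicate 3 (1.88, adjusted p 0.00996) and without 12 h replicate 3 (1.71, adjusted p 0.0385).

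The membrane form was called at all 3 times. Sham arrays gave -2.29, -2.34 and -1.64, 3 h arrays 0.21, -0.06 and 0.05, 12 h arrays -0.42, -0.43 and -1.11, and 72 h arrays -0.25, -0.47 and -0.79. All injured arrays lay above sham, and the 12 h and 72 h arrays overlapped. Its log2 fold change was 2.15 (SE 0.24) at 3 h, 1.43 at 12 h and 1.59 at 72 h, that is 4.45-, 2.70- and 3.00-fold (adjusted p 0.000403, 0.00251 and 0.00186). With normexp the 12 h change was 0.98, just under the 2-fold limit. A further probe for this form was too dim to be above background on more than 1 array.

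Set to 0 at the sham mean, the difference of soluble minus membrane form was -0.02 at 3 h, -0.08 at 12 h and -1.25 ± 0.18 (SD, n = 3) at 72 h. The 3 arrays at 72 h gave -1.45, -1.16 and -1.14 and lay below all 9 others, of which the lowest was -0.53. By a two-sided exact permutation test 72 h against sham gave p = 0.1, the smallest that 3 against 3 arrays allow, and 0.333 after Benjamini-Hochberg adjustment over 10 comparisons of forms. Under the alternative settings that difference lay between -1.45 and -0.82. This comparison was chosen after the values were seen. For Il1rap, short minus long form differed from sham by 0.05, -0.14 and 0.16 at 3, 12 and 72 h (exact permutation p of 0.9, 0.6 and 0.5).

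**Figure D3:**
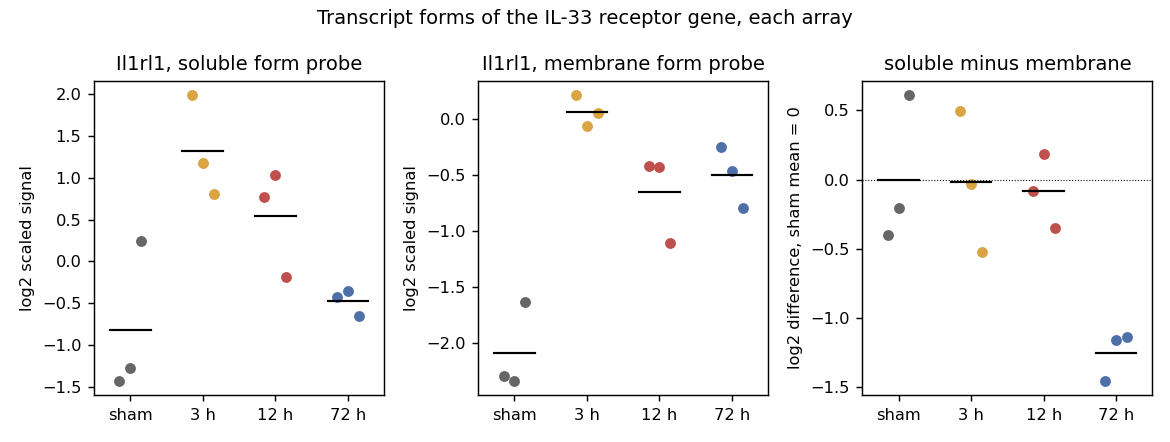
Levels on each array (points; line, group mean; log2 scaled signal) of the probes for the soluble and the membrane form of Il1rl1, and their difference set to 0 at the sham mean. At 72 h the difference was -1.45, -1.16 and -1.14, below the arrays of the other groups.

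Il18, a cytokine with a high resting level in epithelium, was not called against sham. Sham arrays gave 4.11, 3.86 and 4.02, 3 h arrays 3.61, 3.62 and 3.42, 12 h arrays 4.54, 4.03 and 4.14, and 72 h arrays 2.90, 3.41 and 2.94. The 12 h arrays overlapped with sham, and the 3 h and 72 h arrays lay below both. In log2 fold change it stood at -0.44 (SE 0.17, adjusted p 0.112) at 3 h, 0.24 (adjusted p 0.389) at 12 h and -0.91 (adjusted p 0.00546) at 72 h, the last short of the 2-fold limit. At 3 h and 12 h, 3.14% and 3.95% of all genes were called higher and 4.33% and 5.33% lower. At 72 h, 4.4% of all genes were called lower. Of 8 epithelial markers, 0 were called at 3 h or 12 h. At 72 h 2 were called lower, Car1 (log2 fold change -1.64) and the intestinal transcription factor gene Cdx2 (-1.02). Their summed log2 level was 10.03 to 10.13 on the sham arrays, 10.21 to 10.38 at 3 h, 9.84 to 10.14 at 12 h and 9.03 to 9.46 at 72 h. It was thus above sham at 3 h, where Il18 was below, and below sham at 72 h, as was Il18, and its part in the Il18 values was not tested. In whole tissue, fewer cells of a type and less RNA per cell cannot be told apart.

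Consecutive times were compared in the same fit. From 3 to 12 h, 2 of the 9 genes were called higher and 0 lower, against 1.86% of all genes called higher and 1.6% lower. Il1b rose by 1.61 (SE 0.41, adjusted p 0.0385) and Il1rap, on its long form, by 1.30 (SE 0.17, adjusted p 0.00273). The short form of Il1rap rose by 1.11 (adjusted p 0.029). That call was lost with normexp (0.47), within the first slide (adjusted p 0.0559), without any 1 of the 12 h arrays and in other alternatives. The Il1b call was lost within the first slide (1.78, adjusted p 0.0924), without any 1 of 12 h replicates 1 to 3, 3 h replicates 1 and 3 or sham replicate 2 (adjusted p from 0.0527 to 0.125) and in other alternatives. From 12 to 72 h, 2 genes were called lower and 0 higher, against 2.94% of all genes called lower and 4.49% higher. Il1rn fell by 2.55 (SE 0.57, adjusted p 0.0137) and Il18 by 1.15 (SE 0.17, adjusted p 0.00207).

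The calls of both falls were lost in some alternatives. With the slide as a block they were -2.49 (adjusted p 0.153) and -1.05 (adjusted p 0.0551). Within the second slide, where a lone 12 h array stands for its group, the same sizes had adjusted p of 0.251 and 0.241. The Il1rn call was lost without 12 h replicate 1 (-2.24, adjusted p 0.0541) or 72 h replicate 1 (-2.17, adjusted p 0.054). Without 12 h replicate 1 the Il18 fall was -0.999 (adjusted p 0.00806), just under the 2-fold limit. The cause of these losses was not tested.

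The cytokine and its antagonist did not move in step. Set to 0 at the sham mean, Il1b minus Il1rn was 1.01, 1.64 and 0.68 on the 3 h arrays, 1.84, 2.56 and 1.78 on the 12 h arrays and 4.27, 3.37 and 3.26 on the 72 h arrays, against -0.46 to 0.28 in sham. On these brightest probes the 4 groups did not overlap, and the difference grew from group to group. The separation depended on the probe. With the Il1b probe for ENSMUST00000155994, 3 h arrays overlapped with sham and 72 h arrays with 12 h. With the other Il1rn probe, dim on most sham arrays, the 3 h arrays also overlapped with sham. The decoy rose more than the signalling receptor at every time: Il1r2 minus Il1r1 had group means of 4.45 ± 0.68 at 3 h, 5.79 ± 0.25 at 12 h and 4.0 ± 0.81 at 72 h (SD, n = 3). These are differences in log2 change between probes, described with no test, and not ratios of protein. No such difference is given for Il1b and Il1a, since the sham level of Il1a was not measured.

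**Figure D4:**
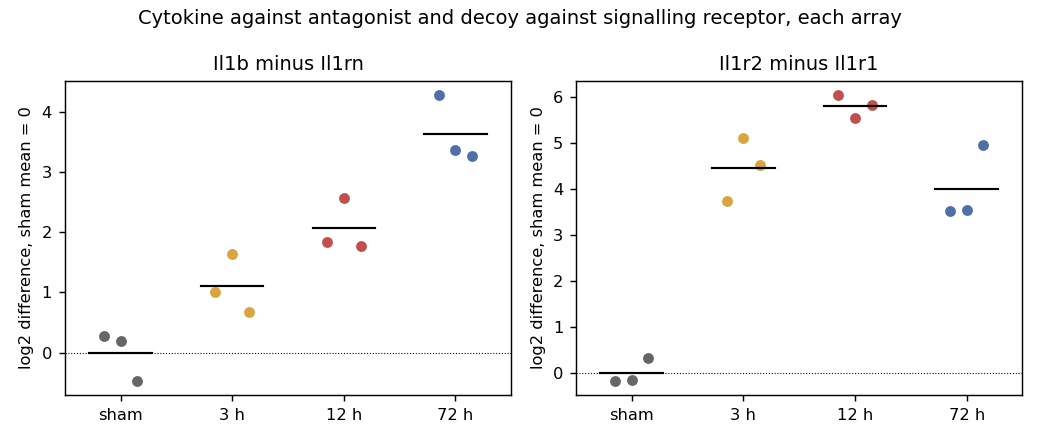
Differences in log2 level between the brightest probes on each array (points, with a line for the group mean), set to 0 at the sham mean. Il1b minus Il1rn rose from a mean of 1.11 at 3 h to 2.06 at 12 h and 3.63 at 72 h, while Il1r2 minus Il1r1 was highest at 12 h (5.79).

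Of 12 other ligands and receptors of the family, 8 passed the background limit on every array of at least 1 group. At 3, 12 and 72 h, 3, 4 and 4 genes were called higher and 0 lower. For this and each list below, the shares of all genes called higher were 3.14%, 3.95% and 4.5%. Those called lower were 4.33%, 5.33% and 4.4%. The list's median log2 fold change was 0.24, 0.46 and 0.71, against 0.06, -0.04 and -0.15 for all genes. Il36g, an epithelial cytokine listed on the array as Il1f9, was not above background in sham and was at least 18.5-fold higher at 3 h, 60.7-fold at 12 h and 14.7-fold at 72 h. Il36a was at least 5.19-fold higher at 3 h and 7.79-fold at 12 h. Il18rap, the accessory chain of the IL-18 receptor, was at least 3.20-, 7.95- and 3.92-fold higher. Il1rl2, the receptor of the IL-36 cytokines, rose at 72 h by 1.79 (SE 0.26).

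Genes that process and release these cytokines were called in part. Of 18 measured, 4 were called higher and 1 lower at 3 h, 6 higher at 12 h and 4 higher at 72 h, with medians of 0.09, 0.40 and 0.38. Among all genes, 3.14%, 3.95% and 4.5% were called higher at these times, and 4.33% lower at 3 h. Nlrp3, the inflammasome sensor, rose by 1.47, 3.02 and 1.62 at the 3 times. Casp4, whose product cleaves gasdermin D, rose by 1.61 at 3 h and 1.58 at 12 h, and Nlrp1b by 1.49 at 12 h and 2.41 at 72 h. Cma1, a mast cell chymase, rose by 2.42 at 3 h and 3.16 at 72 h. Nlrp6, an epithelial sensor, fell by 1.18 at 3 h.

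Of 15 genes of proximal signalling below the receptor, 2 were called higher at 3 h, 2 at 12 h and 1 at 72 h. Irak3, an inhibitory member of the kinase family, rose by 1.83, 3.45 and 2.55. Myd88, the adaptor of IL-1 and Toll-like receptors, rose by 1.03 at 3 h and 1.19 at 12 h. The median of the list was 0.23, 0.15 and -0.14, close to that of all genes.

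Genes known to be induced by IL-1 stood high. Of 19 measured, 17 were called higher at 3 h, 18 at 12 h and 16 at 72 h, and 0 lower. Their median log2 fold change was 3.75, 3.59 and 3.85, or 2.68, 3.59 and 3.44 with genes dim in sham set to their bound. The neutrophil chemokine Cxcl5 rose by 7.68, 8.54 and 8.42. Cxcl1 rose by 8.56, 7.93 and 7.15, Lcn2, which encodes an iron-binding antimicrobial protein, by 5.99, 8.90 and 6.58, and Il6 by 7.59, 6.72 and 7.19. Cxcl2 was at least 290-, 907- and 275-fold higher. Other cytokines induce these genes too, and many of them are known in neutrophils and macrophages.

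Type 2 genes that follow IL-33 in other tissues were split. Of 9 measured, 4 were called higher at 3 h and again at 12 h, and 3 at 72 h. Called lower were 0, 1 and 1, and the list's median was 1.02, 1.46 and -0.12. The cytokines Il4, Il5, Il9 and Il13, named after their values were seen, were called at no time, and Il5 and Il9 were each above background on 1 array. Arg1 was at least 13.4-, 92.5- and 298-fold higher. Chil3 rose by 2.89, 4.95 and 2.35, and the eosinophil chemokine Ccl24 by 1.66, 2.56 and 2.54 at the 3 times. Areg, a growth factor for epithelium, rose by 3.46 at 3 h and 1.84 at 12 h. Retnla, a marker of alternatively activated macrophages, fell, by log2 changes of -2.07 at 12 h and -4.17 at 72 h.

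**Figure D5:**
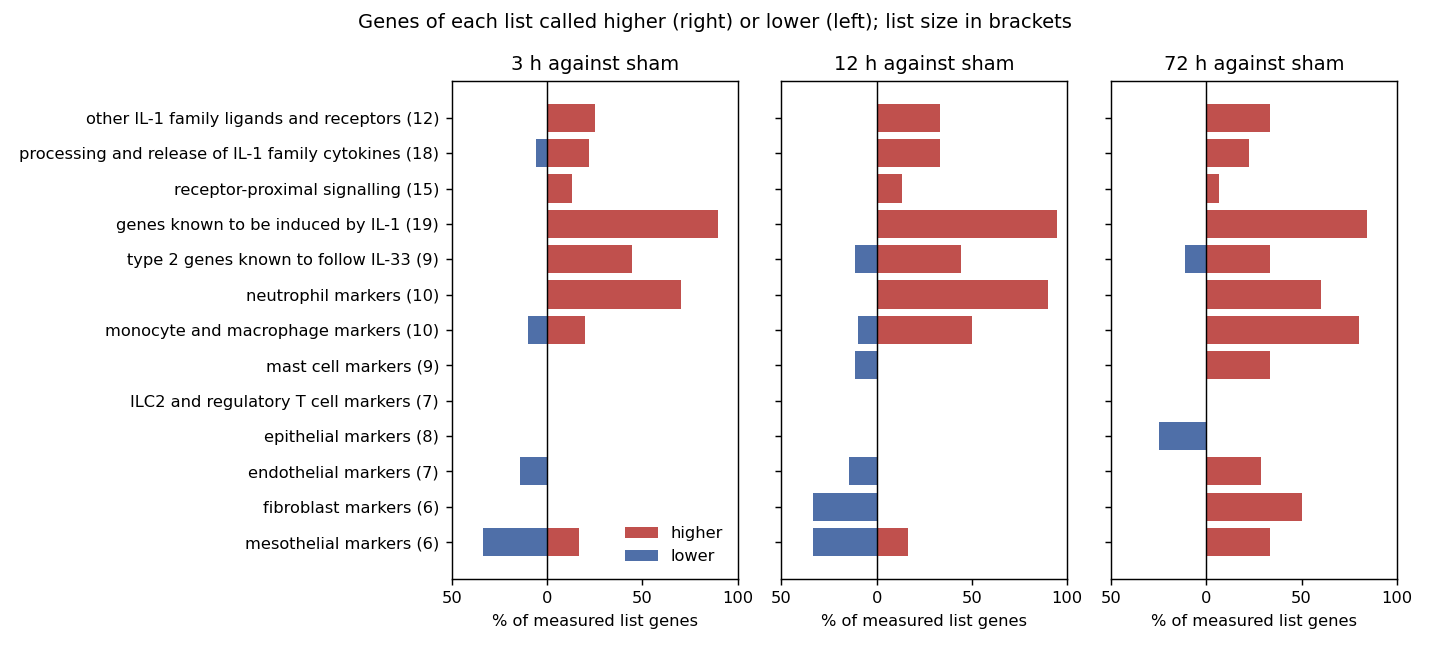
Share of the measured genes of each list (list size in brackets) called higher (right, red) or lower (left, blue) than sham at 3, 12 and 72 h. The genes induced by IL-1 had 17, 18 and 16 of 19 called higher, and the neutrophil markers 7, 9 and 6 of 10. Among all genes, 3.14%, 3.95% and 4.5% were called higher.

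Marker lists of immune cells differed in their course. Of 10 neutrophil markers, 7 were called higher at 3 h, 9 at 12 h and 6 at 72 h. Their summed log2 level went from 5.81 to 6.01 on the sham arrays to 7.94 to 8.69, 9.14 to 9.20 and 7.91 to 8.77. Few probes carry that sum: in sham mostly Csf3r (mean level 5.85), and later mostly S100a9 (7.60, 8.38 and 7.62 at the 3 times). S100a9 rose by 10.04, 10.82 and 10.06, S100a8, above background on 2 of the 3 sham arrays, by 10.77, 12.29 and 10.95, and Cxcr2, not above background in sham, was at least 60.2-, 216- and 124-fold higher. In sham, 3 of the 10 markers were not above background on any array. Named after their values were seen, Csf3r was not called (-0.46, -0.37 and -0.41), Ly6g rose by 3.58 and 3.61 and stood at -0.09 at 72 h, and Ngp, called at 3 h and 12 h, was above background on 1 array at 72 h. Their part in the rise of Il1b, Il1r2 and Il1rn was not tested.

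Of 10 monocyte and macrophage markers, 2, 5 and 8 were called higher at 3, 12 and 72 h. Their summed log2 level was 6.55 to 6.99 on the sham arrays, 7.37 to 8.03 at 3 h, 7.85 to 8.01 at 12 h and 8.07 to 8.20 at 72 h. Few probes carry that sum. At 3 h it was mostly Ly6c2 (mean level 6.60, sham 4.33) and Lyz2 (6.36, sham 5.95). Ly6c2 rose by 2.26 at 3 h and 2.52 at 12 h. Lyz2, named after its values were seen, was not called at 3 h (0.42). Ccr2 rose by 2.44 at 12 h and 3.37 at 72 h, while Cx3cr1, a marker of resident macrophages, fell, by log2 changes of -2.82 at 3 h and -1.24 at 12 h. Of 9 mast cell markers, 0 were called at 3 h, 1 was called lower at 12 h (Kit, -1.03) and 3 were called higher at 72 h: Cpa3 (1.70), Tpsb2 (1.43) and Tpsab1, not above background in sham and at least 4.0-fold higher. The summed level of the mast cell markers was 1.57 to 1.84 on the sham arrays, 1.28 to 2.16 at 3 h, 1.46 to 1.57 at 12 h and 1.79 to 2.25 at 72 h. Of 7 markers of ILC2 and regulatory T cells, which carry ST2, 0 were called at any time. Per time, 3.14% to 4.5% of all genes were called higher and 4.33% to 5.33% lower. The counts of 0 and 1 in these short lists are near those shares.

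Markers of the tissue's own stroma and surface changed with time. Among all genes, 3.14%, 3.95% and 4.5% were called higher at the 3 times, and 4.33%, 5.33% and 4.4% lower. Of 6 fibroblast markers, 0 were called at 3 h, 2 lower at 12 h (Lum, -1.67, and Col1a1, -1.66) and 3 higher at 72 h, among them Col1a1 (2.99). Their summed level was 5.90 to 6.10 on the sham arrays, 5.56 to 5.68 at 3 h, 5.59 to 5.72 at 12 h and 7.20 to 8.14 at 72 h. Of 6 mesothelial markers, Pdpn rose at all 3 times (1.71, 2.29 and 2.57). Upk3b and Lrrn4 were well above background in sham on every array and on 0 arrays at 3 h and 12 h, at least 4.12- and 3.67-fold lower at 3 h and 4.91- and 4.38-fold lower at 12 h. Wt1 rose by 4.39 at 72 h. The summed mesothelial level was 7.28 to 7.53 on the sham arrays, 7.84 to 8.0 at 3 h, 7.29 to 7.62 at 12 h and 6.81 to 7.24 at 72 h. It follows Krt19, a keratin also made by gut epithelium, whose mean level was 7.41, 7.86, 7.37 and 6.86 in the 4 groups and which is named after its values were seen. Of 7 endothelial markers, Cldn5 fell at 3 h (-1.70) and 12 h (-1.16), and Cdh5 (1.75) and Emcn (1.08) rose at 72 h, with a summed level of 2.85 to 3.03 on the sham arrays, 2.23 to 2.59 at 3 h, 2.33 to 2.49 at 12 h and 2.87 to 4.04 at 72 h. Their part in the values of Il33, Il1r1 and Il1rl1 was not tested.

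The genes whose levels were most like each member were found by Pearson's correlation over the 12 arrays, among 23814 genes. For most members the arrays fall into a low sham group and the injured groups, so these values describe a shared course and carry no test. Il18 and the soluble-form probe of Il1rl1 used here did not fall into such groups. Il1b was most like Hdc (0.998), Clec4e (0.997) and Clec4d (0.996), and Il1r2 was most like Hdc (0.998), Il1b (0.995) and Clec4e (0.995). Hdc makes histamine, and Clec4e and Clec4d encode lectin receptors of myeloid cells. Il1a was most like Ccl3 (0.997), Cebpb (0.995) and Irg1 (0.994), and Il33 most like S100a9 (0.991), S100a8 (0.990) and Cxcl5 (0.989). Il1rn was most like Rap1b, Gm11545 and Ccl2 (each 0.978), and Il1rap like Rab8b (0.980), Slc2a3 (0.977) and Itprip (0.973). Il1r1 was most like Bmper (0.971), Cfap69 (0.968) and D630010B17Rik (0.962). Il1rl1 was most like Cbwd1 (0.975) and the transcripts ENSMUST00000072050 (0.978) and ENSMUST00000092011 (0.973). Il18 stood apart, with Synrg (0.970), Ralgapa2 (0.919) and Slc13a2 (0.916) nearest and a value of -0.23 with Il1b.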

How the data were processed

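Cy3-labelled RNA from 12 cecum samples had been hybridised to 1-colour Agilent SurePrint G3 Mouse arrays and read with Feature Extraction 11.5.1.1. The deposited intensity values are processed signals, background-corrected by the scanner software. The deposited value table holds log2 values that the authors scaled to the 75th percentile in GeneSpring, and it was used only as an alternative (r = 0.9995 with the values here after centring).

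From the processed signals, control spots (3671 of 62976 per array) and outlier spots (53 to 152 per array, 0 in the 9 genes) were left out, log2 was taken, the array's 75th percentile was subtracted, and spots of 1 probe were averaged. One limma 3.58.1 fit (R 4.3.3) held the 4 groups of the 12 arrays, and p-values were adjusted by Benjamini-Hochberg across the 56605 probes. Each gene stands on its probe with the highest mean. Changed meant over 2-fold at an adjusted p below 0.05. Where a probe was not well above background on any array of a group, a lower bound of the fold is given. The fit was tested on simulated data of 56605 probes with the spread of the fit over all 12 arrays. Changes were put into 200 probes of the 3 h group. Of changes of 1.5 (log2) 76% were recovered and of changes of 4 100%, and 13 unchanged probes were called. The number of arrays limits the precision, and the study's text calls the samples biological triplicates.

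The members, lists and motifs were chosen with earlier results of these data known. Text names up to 3 called genes per list and time by size of change, any called against the list's direction, and the 3 genes most like each member. Alternatives covered background correction, scaling, filters, slide, replicate number, test and single arrays.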

Additional observations from a re-analysis of the deposited data

Results flagged for a closer look

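For 4 genes the change against sham differed over 2-fold between consecutive times, at an adjusted p below 0.05 for the difference itself. From 3 to 12 h, Il1b differed by 1.61 and Il1rap by 1.30 (log2). From 12 to 72 h, Il1rn differed by -2.55 and Il18 by -1.15. Among these, the Il1rap step, counted on its brightest probe for the long form, passed in 26 of the 26 alternatives other than the methods' t-test. The Il1b step passed in 16, and the Il1rn and Il18 steps in 22 each. On the probe of the Il1rap short form the step was called in the main fit and lost in some alternatives. Some further steps had an adjusted p below 0.05 but stayed under the 2-fold limit. Il18 rose by 0.68 from 3 to 12 h (adjusted p 0.0389). From 12 to 72 h, Il1r1 rose by 0.91 (adjusted p 0.02) and Il1rap changed by -0.97 (adjusted p 0.00472).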

How the results depend on the processing

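Against sham, no member changed direction under any alternative. Leaving out single arrays gave 6 to 7 members called at 3 h, 6 to 7 at 12 h, 7 to 8 at 72 h, 1 to 3 from 3 to 12 h and 1 to 3 from 12 to 72 h, and 9 of 9 by the F-test. The methods name no test for the arrays. With the paired test of their general statistics (the methods' t-test), paired by replicate number and adjusted over all probes, 0 members were called against sham at each time, 0 from 3 to 12 h and 0 from 12 to 72 h. Its unadjusted p, added after seeing the data, gave 6, 6 and 7 against sham, 1 from 3 to 12 h and 0 from 12 to 72 h. From 3 to 12 h the count was 4 with normexp and 1 with the slide as a block, 1 within the first slide and 1 with only the groups compared in the fit. From 12 to 72 h it was 1 with quantile normalization, 0 with the slide as a block, 0 within the second slide and 4 with no fold threshold. The cause of these differences was not tested.

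Replicate numbers did not pair the samples: of 18 same-number pairs, 0 had deviations correlated above 0.1 (-0.16 to 0.09). With the replicate block, 1 member instead of 2 was called from 3 to 12 h.

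Signs turned only for values near 0. Il1r1 from 3 to 12 h (-0.05) was 0.0104 with the percentile over probes above background, and 0.0086 with the slide as a block or within the first slide. Leaving out single arrays gave -0.15 to 0.012. The Il1rl1 membrane probe from 12 to 72 h (0.15) ranged from -0.076 to 0.30 when single arrays were left out.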
